A study of Chlorella sp. with 12 samples.

Results

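Organelle-type ribosomal proteins are the proteins of the bacterial-type ribosomes found in chloroplasts and mitochondria. In the transcriptome of the green alga Chlorella sp. TLD6B they were taken as the unigenes (1 assembled transcript kept for each cluster of transcripts) whose KEGG orthology (KO) name was a bacterial ribosomal protein gene, from rplA to rpmJ for the large subunit (proteins L1 to L36) and from rpsA to rpsQ for the small subunit (S1 to S17), and was not the name of a cytosolic ribosomal protein. The rule found 49 KOs with 429 unigenes, of 3282 KOs and 155503 unigenes in all. Of these, 46 KOs and 270 unigenes passed the filter on low values, and S3, S8 and S14 did not.

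Plants and green algae have 3 kinds of ribosome, in the cytosol, in the chloroplast and in the mitochondrion. The chloroplast ribosome descends from that of a cyanobacterium and makes the core proteins of the photosystems and the large subunit of Rubisco. Its RNA and some of its proteins come from genes in the plastid genome, and the other proteins are made in the cytosol from nuclear genes and imported. Many, but not all, proteins of the mitochondrial ribosome are imported in the same way. In green algae, L2, L5, L14, L16, L20, L23, L36, S2, S3, S4, S7, S8, S9, S11, S12 and S14 are commonly among the proteins encoded in the plastid.

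All cells were of the strain TLD6B and were grown in BBM medium at 23 °C under a light and dark cycle. CK0 was untreated and taken at day 0, CK18 was untreated and taken at day 18, Nacl1 and Nacl2 received 0.1 M and 0.8 M NaCl, and PEG1 and PEG2 received 0.05 g/mL and 0.1 g/mL PEG-6000, a polymer used to imitate drought. The 4 treated groups were taken at day 18. Each of the 6 groups had 2 RNA-seq libraries, written here as CK18_1 and CK18_2 and so on, which the study calls biological replicates without saying whether they were separate cultures, so that p-values measure the spread between these libraries. CK0 and CK18 differ in culture age and in everything that changes with it, and CK18 is the shared control of all 4 treatments.

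Values are FPKM, fragments per kilobase of unigene and scaled to the mapped reads of the library, summed by KO and divided by a factor for each library, called here the scaled level. The KO factors ranged from 0.691 to 1.49. Differences are log2 fold changes of the scaled level with 0.1 added, with the standard error (SE) from 1 limma fit over all 12 libraries. A KO was called changed where the Benjamini-Hochberg adjusted p over all 2989 tested KOs was under 0.05 and the log2 fold change was at least 1 in either direction. The number of reads per library is not in the files used here. The worth of 1 fragment was estimated as the most common value above 0 among unigenes of like length. It was 0.73 to 1.52 FPKM at 288 bp and 0.12 to 0.33 FPKM at 533 bp. The most common value can stand for more than 1 fragment, so the upper ends may be too high. The green alga markers (15 KOs of light-harvesting and photosystem proteins) summed to between 19521 and 83183 FPKM in every library. Of 12 names of bacterial marker genes, only lpxC was found, at 3.2 FPKM in PEG2_2 and at 0 elsewhere. This search went by annotation, in which no member unigene had a best match to a bacterium in the NR protein database. Yet 167 member unigenes had a higher-scoring SwissProt match to a bacterium. The search therefore cannot show that bacteria were absent. Unigenes with a SwissProt score above their NR score held 0.982% to 2.54% of all FPKM. In bulk RNA, fewer cells of a kind and less RNA per cell cannot be told apart.

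The members made up 0.157% and 0.137% of all FPKM in CK0 and between 0.961% and 1.98% in the other 10 libraries. The scaled member sum was 2798 and 2895 in CK0, 58949 and 53022 in CK18, 39897 and 44548 in Nacl1, 15868 and 15826 in Nacl2, 53428 and 60378 in PEG1 and 58656 and 62395 in PEG2. On this scaled sum day 0 was the lowest group and Nacl2 the next lowest, and neither overlapped with any other group. As a share of all FPKM, Nacl2 (0.985% and 0.961%) overlapped with CK18 (1.13% and 0.972%). The member FPKM as deposited summed to 23261.5 and 21319.4 in Nacl2 against 40593.7 and 36314.6 in CK18. Cytosolic ribosomal proteins made up 19.0% to 32.0% of all FPKM in the same libraries.

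For description the members were divided at a mean of 5 FPKM into abundant and trace proteins, a limit set by convention. Of the 49 members, 37 had a mean of at least 5 FPKM and 12 did not. No member lay between 4.13 FPKM (L2) and 7.71 FPKM (L33), nor between L33 and 14.8 FPKM (S17). The 12 were L2, L5, L16, L36, S2, S3, S4, S7, S8, S11, S12 and S14, each named above among the proteins commonly encoded in the plastid genome. The rest of those named there, L14, L20, L23 and S9, were among the 37, with means of 49.5, 77.8, 42.6 and 86.2 FPKM. Among the 37 abundant members the higher library of a group was at a median of 1.12 times the lower one, and at most 3.61 times (L33 in CK18). For 24 of the 49 members a single unigene held at least 90% of the summed level, and a member had between 1 and 24 unigenes. The leading unigene was at least 2000 bp long in 12 members.

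**Figure D1:**
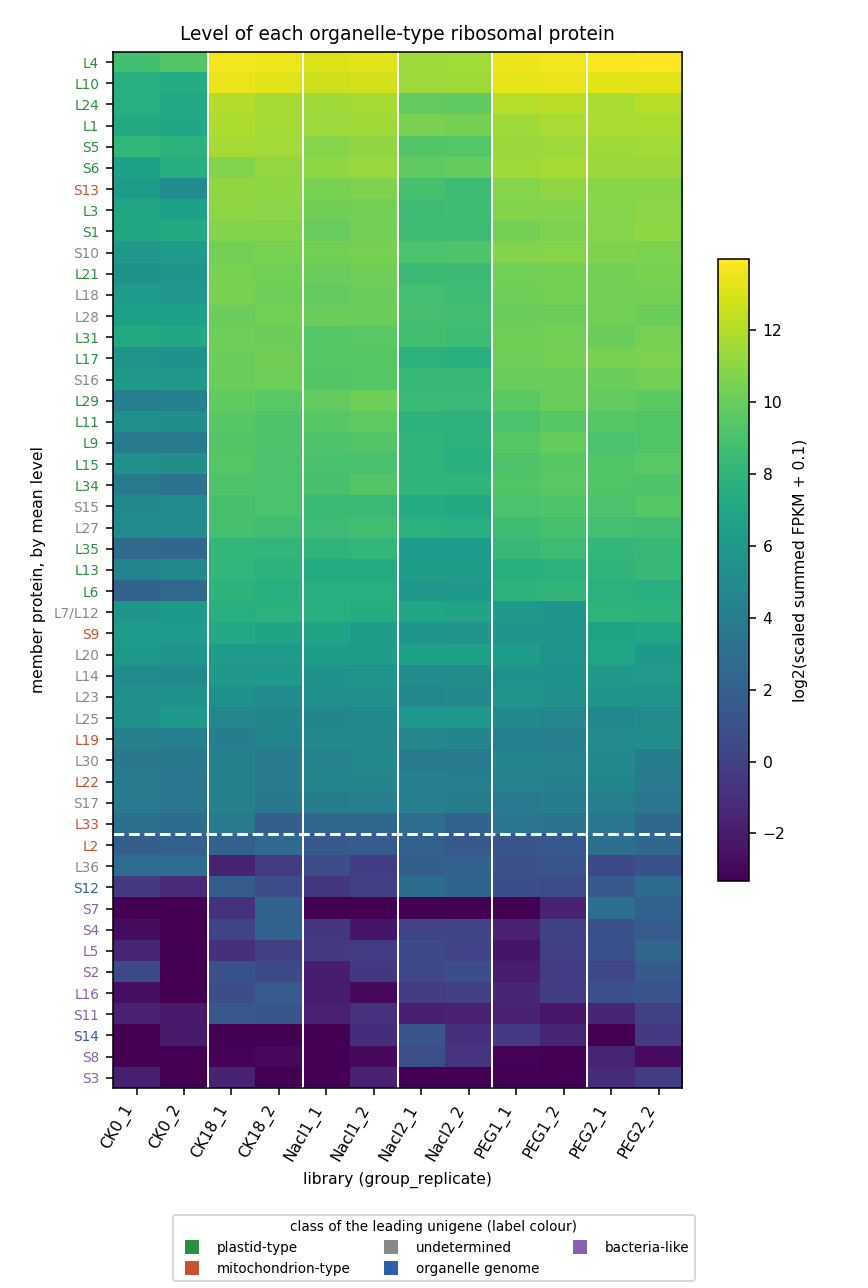
Heat map of the log2 scaled level of the 49 organelle-type ribosomal proteins (vertical axis, in order of mean level) in the 12 libraries (horizontal axis); the colour of a name gives the annotation class of its leading unigene and the dashed line marks a mean of 5 FPKM. The upper members are darker in CK0 than in CK18, and darker in Nacl2 than in CK18.

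Between day 0 and day 18 without treatment, most organelle-type ribosomal proteins were higher. Of the 46 tested members, 33 were called higher and 1 lower in CK18 than in CK0, where 50.0% of all tested KOs were called (25.6% higher and 24.4% lower). The median log2 fold change of the members was 3.81, against −0.06 over all KOs. The called increases ran from 1.05 (L14) to 5.82 (L10), and L36 was the member that fell. The members not called in this comparison were L2, L5, L19, L20, L22, L23, L25, L30, L33, S2, S9 and S17, with log2 fold changes from −0.98 (L25) to 2.19 (S2). Leaving out any of the 12 libraries in turn gave between 32 and 37 called members.

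The largest increases were in L10, L34 and L35. L10 is the base of the stalk on which elongation factors dock in bacteria. Its scaled level was 189.8 and 168 in CK0, 11473 and 8944 in CK18, 6644 and 7034 in Nacl1, 2783 and 2889 in Nacl2, 10191 and 11366 in PEG1, and 10123 and 9998 in PEG2. CK0 lay below every other library and Nacl2 below every other day 18 library, with a log2 fold change of 5.82 (SE 0.15, adjusted p = 5.44e-09) for CK18 against CK0 and −1.84 (SE 0.15, adjusted p = 7.49e-06) for Nacl2 against CK18. L34 and L35, small proteins of the large subunit, came next. L34 was at 13.1 and 9.02 in CK0, 592 and 542 in CK18, 507 and 649 in Nacl1, 255 and 254 in Nacl2, 623 and 744 in PEG1, and 621 and 606 in PEG2. L35 was at 6.33 and 5.23 in CK0, 277 and 272 in CK18, 244 and 283 in Nacl1, 77.3 and 76.0 in Nacl2, 308 and 373 in PEG1, and 286 and 312 in PEG2. For both, the groups CK0, Nacl2 and CK18 were in that order without overlap, and the log2 fold change from CK0 to CK18 was 5.69 for L34 (SE 0.20) and 5.55 for L35 (SE 0.17), with adjusted p = 1.27e-08 and 9.60e-09.

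The same order held for the other members of highest mean level. L24, which binds early in the assembly of the bacterial large subunit, was at 183 and 141 in CK0, 4076 and 3284 in CK18, 2946 and 3285 in Nacl1, 933 and 884 in Nacl2, 4194 and 4591 in PEG1, and 3528 and 4522 in PEG2. L1, the protein of the mobile stalk through which spent tRNA leaves, was at 149.9 and 131 in CK0, 3802 and 3173 in CK18, 2773 and 2976 in Nacl1, 1461 and 1299 in Nacl2, 2902 and 3499.8 in PEG1, and 3546 and 3799 in PEG2. S5, a small-subunit protein with a part in accurate decoding, was at 284 and 219 in CK0, 3230.4 and 3071 in CK18, 1852 and 2170.5 in Nacl1, 651 and 692 in Nacl2, 2676 and 2855 in PEG1, and 2987 and 3103 in PEG2. For each of the 3 proteins both CK0 libraries were the lowest, both Nacl2 libraries were next, and the log2 fold changes from CK0 to CK18 were 4.51, 4.63 and 3.66.

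L4, which lines the tunnel through which the new peptide leaves, had the highest mean of all members, but its level rested on very short unigenes. It was at 439.6 and 651 in CK0, 13387 and 11902 in CK18, 8445 and 9521 in Nacl1, 2874 and 3065 in Nacl2, 11261 and 13101 in PEG1, and 14351 and 16276 in PEG2. Its leading unigene, Cluster-31803.33136, was 229 bp long, and the estimated worth of 1 fragment on that length was 2.85 to 11.9 FPKM. With unigenes under 300 bp left out of the sum, an alternative added after seeing the data, the L4 log2 fold change for CK18 against CK0 went from 4.56 to 0.12 (adjusted p = 0.625). The leading unigene was under 300 bp in 5 members (L4, L10, L28, S6 and S7), and the median over the members without such unigenes was 3.68.

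L36, a small zinc-binding protein in bacteria, went the other way from most members, at low levels. It was at 7.15 and 7.50 in CK0, 0.215 and 0.753 in CK18, 1.58 and 0.782 in Nacl1, 3.61 and 4.05 in Nacl2, 1.88 and 2.14 in PEG1, and 1.36 and 1.97 in PEG2. CK0 was above every other library and CK18 was the lowest group, and the log2 fold change for CK18 against CK0 was −3.84 (SE 0.50, adjusted p = 7.58e-05). Its leading unigene, Cluster-31803.86913, was 2045 bp long and its SwissProt match did not name a ribosomal protein, as held for the leading unigenes of 7 members (L23, L25, L28, L30, L36, S4 and S17).

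Under 0.8 M NaCl the scaled levels of most members were lower. Of the 46 members, 2 were called higher and 29 lower in Nacl2 than in CK18, where 47.1% of all tested KOs were called (24.7% higher and 22.3% lower), and the median log2 fold change was −1.35 against −0.05 over all KOs. The log2 fold change was −2.23 for S5 (SE 0.16, adjusted p = 3.85e-06), −2.01 for L24 (SE 0.18, adjusted p = 1.44e-05) and −1.33 for L1 (SE 0.16, adjusted p = 6.23e-05). L17, a large-subunit protein near the tunnel exit, was at 49.0 and 47.7 in CK0, 1082 and 1231 in CK18, 675 and 735 in Nacl1, 224 and 197 in Nacl2, 1161 and 1316 in PEG1, and 1367 and 1517 in PEG2. Both Nacl2 libraries were below every other day 18 library, and the log2 fold change against CK18 was −2.46 (SE 0.15, adjusted p = 3.21e-06). Leaving out any of the 12 libraries in turn gave between 28 and 32 called members.

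The number of members called lower in Nacl2 depended on how the libraries were scaled. With FPKM as deposited 7 members were called higher and 8 lower, with quantile normalization 2 and 16, and with factors from the unigenes 5 and 15. For these scalings, here and below, the share of all KOs called is not given. Such counts therefore cannot be set against that share. The median over all KOs was 0.95 with FPKM as deposited and 0.66 with factors from the unigenes. Relative to the median over all KOs the members were lower under each of the 4 scalings. The difference of medians was −1.30, −1.29, −0.79 and −1.29 for the KO factors, the deposited values, quantile normalization and the unigene factors. A factor for each library shifts all KOs alike, so these differences had to be near equal except with quantile normalization. Quantile normalization was therefore the only separate check of the difference. The 7 members called lower under all 4 scalings were L3, L17, S1, S5, S7, S11 and S13, and L25 and L36 were called higher under all 4. L1 and L10 were among those lost, with log2 fold changes of −0.32 and −0.82 for FPKM as deposited. Of those kept, S7, S11 and L36 were trace members. S7 was at 0.445 and 4.23 in CK18 and at 0 in Nacl2, so that the size of its fold change depended on the 0.1 added. S11 was at 2.46 and 2.33 in CK18 and 0.192 and 0.238 in Nacl2.

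The day 0 difference was less dependent on the scaling. With FPKM as deposited, quantile normalization and unigene factors, 30, 35 and 32 members were called higher in CK18 than in CK0 and 3, 1 and 2 lower. Of the members, 30 were called higher and 1 (L36) lower under all 4 scalings. The difference between the median of the members and that of all KOs was 3.87, 3.86, 3.20 and 3.87 in the same order as above. Here too only quantile normalization could have changed it by much.

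**Figure D2:**
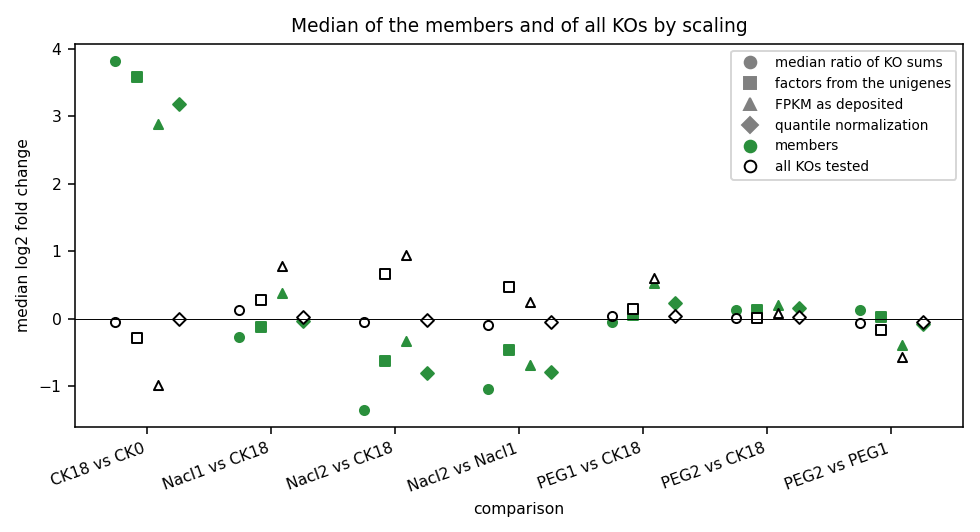
Median log2 fold change (vertical axis) of the 46 tested organelle-type ribosomal proteins and of all 2989 tested KOs in 7 comparisons (horizontal axis) under 4 scalings of the libraries. The members were above all KOs in CK18 against CK0 and below them in Nacl2 against CK18 under every scaling, while the level of both sets of points moved with the scaling. A factor for each library moves both sets alike, so only quantile normalization could change the distance between them by much.

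**Figure D3:**
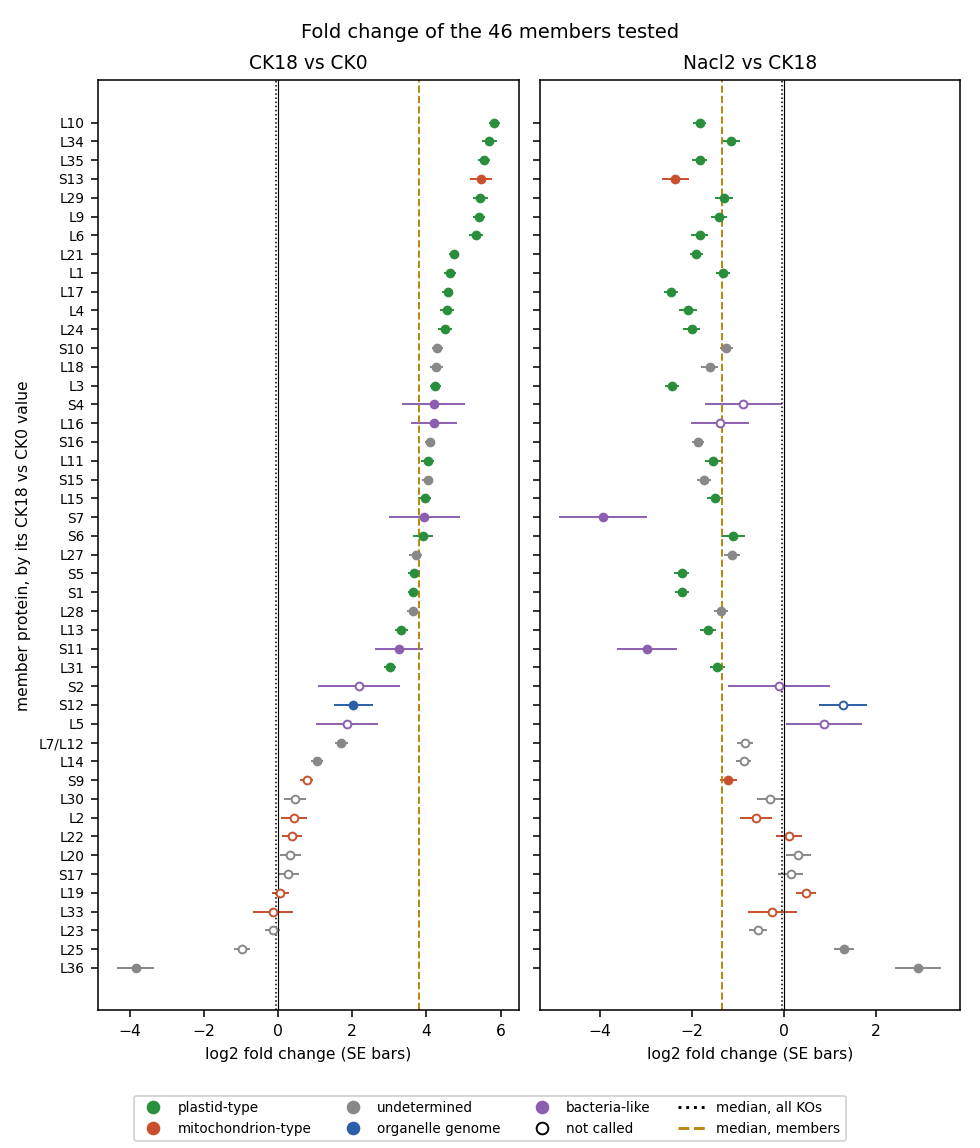
Log2 fold change and SE of each of the 46 tested proteins for CK18 against CK0 and for Nacl2 against CK18; filled points were called, the dashed line is the median of the members and the dotted line that of all KOs. In CK18 against CK0, 33 points were called to the right and 1 to the left, and in Nacl2 against CK18, 2 to the right and 29 to the left.

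L25 and L36 were the members called higher in Nacl2 than in CK18. L25, which binds the 5S RNA in bacteria, was at 40.4 and 61.3 in CK0, 25.9 and 24.5 in CK18, 24.1 and 26.6 in Nacl1, 59.4 and 65.7 in Nacl2, 28.4 and 25.9 in PEG1, and 27.1 and 31.8 in PEG2. Both Nacl2 libraries were above every other day 18 library, with a log2 fold change of 1.31 (SE 0.22, adjusted p = 0.000609). Its leading unigene, Cluster-31803.69239, was the longest leading unigene (5838 bp) and its SwissProt match was a sorting receptor and not a ribosomal protein. L36 rose by 2.92 (SE 0.50, adjusted p = 0.000645).

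Few members were called at the lower NaCl dose, and the direction of the difference depended on the scaling. The scaled member sum was lower in Nacl1 (39897 and 44548) than in CK18 (58949 and 53022). The member share of all FPKM was higher in Nacl1 (1.52% and 1.65%) than in CK18 (1.13% and 0.972%). In Nacl1, 0 members were called higher than in CK18 and 4 lower, where 17.5% of all KOs were called (9.90% higher and 7.56% lower), and the members' median was −0.28 against 0.13 over all KOs. The 4 were L16, S4, S7 and S11, all trace members. Leaving out either Nacl1 library left 2 calls, and the range over all 12 libraries was 2 to 5. With FPKM as deposited 5 members were called higher and 3 lower, with a median of 0.38, the other direction. Against Nacl1, 4 members were called higher in Nacl2 and 24 lower, where 34.2% of all KOs were called (17.3% higher and 17.0% lower) and the members' median was −1.04 against −0.10. Of these, 4 higher (L16, L25, L36 and S12) and 10 lower (L3, L6, L11, L17, L21, L24, L29, L35, S5 and S13) were called under all 4 scalings. Among them L16, L36 and S12 were trace members. The largest decreases had log2 fold changes of −1.82 in S13 (SE 0.29, adjusted p = 0.000999), −1.78 in L24 (SE 0.18, adjusted p = 0.000147) and −1.78 in L35 (SE 0.17, adjusted p = 0.000125).

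S13, which touches both the small-subunit head and the tRNA in bacteria, was at 73.1 and 33.6 in CK0, 2266 and 2161 in CK18, 1439 and 1576 in Nacl1, 485 and 376 in Nacl2, 1874 and 2218 in PEG1, and 1966 and 1968 in PEG2. Both Nacl2 libraries were below the other day 18 libraries. Unigenes annotated as mitochondrial held 69.0% of the mean level of S13, and their sum had log2 fold changes of 5.34 for CK18 against CK0 and −2.48 for Nacl2 against CK18. Its plastid-type unigenes were called in the same directions.

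The 429 unigenes were sorted by their annotation, after their values had been seen, into those of a plastid-type protein (61 unigenes), a mitochondrion-type protein (82), a protein encoded in an organelle genome (15), a bacteria-like protein (167, with a SwissProt match to a bacterium that scored above the best match in NR), an oomycete-like protein (8) and undetermined (96). Plastid-type and mitochondrion-type followed the compartment named in the annotation or, where none was named, a SwissProt match to a cyanobacterium or an alphaproteobacterium, the groups from which the organelles descend. Plastid-type unigenes held between 62.0% and 85.5% of the member FPKM in a library, mitochondrion-type 3.43% to 17.3% and undetermined ones 10.5% to 20.1%. Bacteria-like unigenes were the most numerous but held 0.0256% to 0.557%. The leading unigene of a member was plastid-type in 19, undetermined in 14, bacteria-like in 8, mitochondrion-type in 6 and of an organelle genome in 2.

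When each protein was split by class and refitted with all other KOs, an analysis also added after seeing the values, the plastid-type and mitochondrion-type forms moved differently. Of 22 plastid-type proteins, 21 were called higher in CK18 than in CK0 (50.1% of the 3036 tested features were called, 26.4% higher and 23.7% lower), with a median log2 fold change of 4.96, and the exception was L20 at −0.79. Of 18 tested mitochondrion-type proteins, 4 were called higher (S13, S16, S6 and L28) and 2 lower (L11 and L1), with a median of 0.21. In Nacl2 against CK18 (46.8% called, 24.0% higher and 22.8% lower), all 22 plastid-type proteins were called lower, with a median of −1.86, whereas 2 mitochondrion-type proteins were called higher (L11 and L1) and 3 lower (S13, L24 and S9), with a median of 0.03. Without scaling the plastid-type count was 9 lower and the mitochondrion-type counts were 9 higher and 2 lower. With quantile normalization they were 13 lower, and 2 higher and 2 lower. With unigene factors they were 13 lower, and 7 higher and 2 lower. The shares of all features called under these scalings are not given here. Without scaling and with unigene factors the median over all KOs was itself raised in Nacl2. Without unigenes under 300 bp, 20 of 21 plastid-type proteins were called higher in CK18 than in CK0 and 20 lower in Nacl2 than in CK18, L4 was no longer among them, and S6 was at −0.35 (adjusted p = 0.547) in Nacl2.

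**Figure D4:**
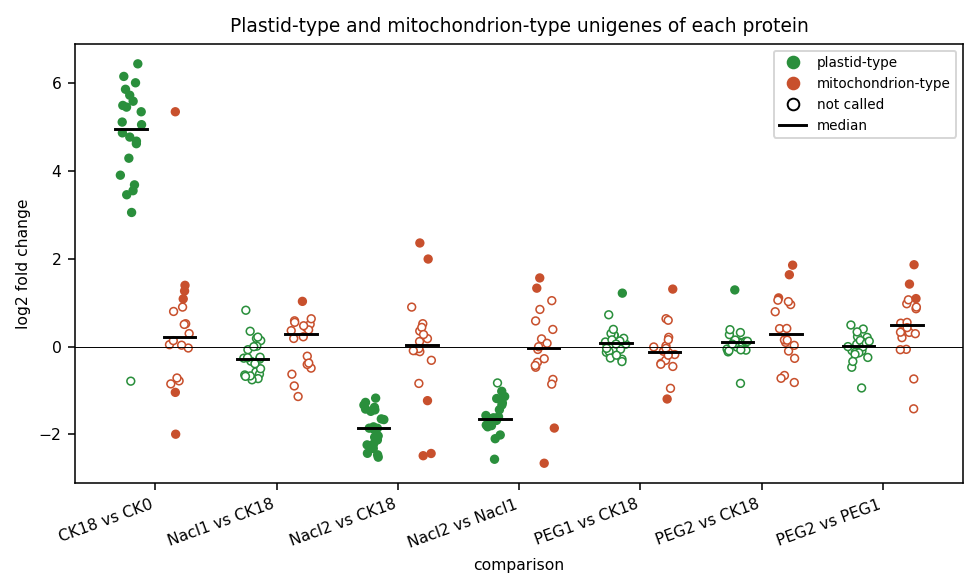
Log2 fold change of each protein (points) in 7 comparisons (horizontal axis), separately for the plastid-type and the mitochondrion-type unigenes of the same protein set, with the median of each class. In CK18 against CK0 the plastid-type points centred on 4.96 and the mitochondrion-type points on 0.21, and in Nacl2 against CK18 on −1.86 and 0.03.

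L1 and L11 were the proteins whose plastid-type and mitochondrion-type forms were called in opposite directions in both comparisons. The mitochondrion-type L11 form (L11 sits at the site where elongation factors act in bacteria) was at 31.8 and 27.9 in CK0, 8.31 and 6.59 in CK18, 15.1 and 15.3 in Nacl1, 39.2 and 37.4 in Nacl2, 19.8 and 17.2 in PEG1, and 32.6 and 16.5 in PEG2. The plastid-type L11 form was at 6.28 and 9.02 in CK0, 720.3 and 603 in CK18, 697 and 805 in Nacl1, 187 and 184 in Nacl2, 523 and 714 in PEG1, and 674 and 596 in PEG2. CK18 was the lowest group for the first form and CK0 for the second. From CK18 to Nacl2 the mitochondrion-type form rose by 2.36 on the log2 scale (SE 0.30, adjusted p = 9.22e-05) and the plastid-type form fell by 1.83 (SE 0.22, adjusted p = 6.76e-05). For L1 the mitochondrion-type form was at 33.7 and 39.97 in CK0, 19.6 and 16.1 in CK18, 18.7 and 30.8 in Nacl1, 72.8 and 69.0 in Nacl2, 15.7 and 17.2 in PEG1, and 17.0 and 21.2 in PEG2. Both Nacl2 libraries were above all others, and the form rose by 1.99 (SE 0.26, adjusted p = 0.000111) while the plastid-type L1 fell by 1.42 (SE 0.17, adjusted p = 7.01e-05). The mitochondrion-type L1 form lay mostly in Cluster-31803.77395, which was 4861 bp long. The part of other sequence in that unigene was not tested.

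The ratio of the plastid-type to the mitochondrion-type form within a library does not depend on the scaling. It could be taken for the 8 proteins in which both forms had a mean of at least 10 scaled FPKM. For L1 it was 3.39 and 2.24 in CK0, 195 and 198 in CK18, 148 and 96.2 in Nacl1, 19.0 and 17.7 in Nacl2, 184 and 203 in PEG1, and 210.2 and 179 in PEG2. For L11 it was 0.197 and 0.324 in CK0, 86.7 and 91.6 in CK18, 46.2 and 52.7 in Nacl1, 4.78 and 4.92 in Nacl2, 26.3 and 41.6 in PEG1, and 20.7 and 36.2 in PEG2. For L21 it was 0.798 and 0.497 in CK0, 47.2 and 40.2 in CK18, 52.8 and 49.3 in Nacl1, 8.17 and 8.13 in Nacl2, 74.9 and 89.9 in PEG1, and 70.5 and 73.7 in PEG2. In these 3 proteins, and in L4, L15 and S6, both CK0 libraries had the lowest ratios and both Nacl2 libraries the next lowest. S13 stayed between 0.217 and 0.639 in every library, and S16 between 0.086 and 1.84. The plastid-type forms of L4 and S6 rested on leading unigenes under 300 bp. The mitochondrion-type forms of L1 and L21 held unigenes of 4861 bp and 5632 bp, and the part of other sequence in these was not tested. Without unigenes under 300 bp, an alternative added after seeing the data, L4 had no such ratio, S6 was at most 0.0541 in any library, and L1, L11, L15 and L21 kept the order. The classes were set after the values had been seen, so the ratios are a description with no test.

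**Figure D5:**
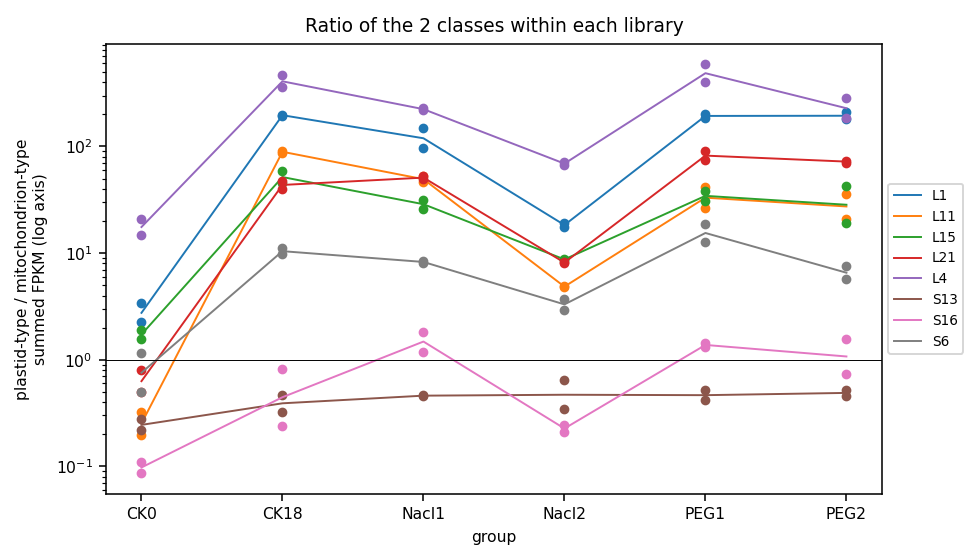
Ratio of the plastid-type to the mitochondrion-type level (vertical log axis) in each library by group (horizontal axis) for 8 proteins; points are libraries and lines join geometric means of the 2 libraries. For 6 of the proteins the ratio was lowest in CK0, next lowest in Nacl2 and higher in the libraries of the other groups. In S16 a CK18 library was below a Nacl2 library, and in S13 all libraries lay between 0.217 and 0.639.

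Unigene by unigene, 69 of the 270 tested member unigenes were called higher and 13 lower in CK18 than in CK0, where 21.9% of the 103195 tested unigenes were called (9.57% higher and 12.3% lower), and 41 higher and 43 lower in Nacl2 than in CK18, where 23.0% were (14.5% higher and 8.48% lower). In Nacl1, 0 were called higher and 1 lower (4.08% of all). Unigene levels were scaled by factors of their own. The mitochondrion-type L11 unigene Cluster-31803.57434 was at 33.9 and 25.1 in CK0, 6.67 and 5.08 in CK18, 13.8 and 14.0 in Nacl1, 50.3 and 51.1 in Nacl2, 16.9 and 13.7 in PEG1, and 25.9 and 13.1 in PEG2. The mitochondrion-type L1 unigene Cluster-31803.77395 (4861 bp) was at 35.8 and 35.7 in CK0, 16.8 and 13.0 in CK18, 16.8 and 28.1 in Nacl1, 100.9 and 95.1 in Nacl2, 13.7 and 14.7 in PEG1, and 14.2 and 17.3 in PEG2. Both were highest in Nacl2 and had the largest called increases there among unigenes with a mean of at least 10 FPKM in the higher group, with log2 fold changes of 3.10 (SE 0.36, adjusted p = 0.000573) and 2.72 (SE 0.30, adjusted p = 0.000440). Under the same limit the largest called decreases were in plastid-type unigenes of L3, a protein by the peptidyl transferase centre (Cluster-31803.38588, −2.39), and L17 (Cluster-31803.18396, −1.78). Without scaling, 43 were called higher and 26 lower in Nacl2, for which the share of all unigenes called is not given here. Leaving out either Nacl2 library lowered the 84 calls in Nacl2 to 37 and 35. In Nacl2 against Nacl1, 26 unigenes were called higher and 21 lower (13.0% of all), with 11 to 50 calls when a library was left out.

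The unigenes classed as of an organelle genome summed higher in Nacl2. An NR description naming such a genome was held by 43 member unigenes. Those classed as bacteria-like or oomycete-like were set apart first, which left 15. These 15 summed to a unigene-scaled level of 27.3 and 17.9 in Nacl2 and 1.26 to 2.92 in the other 10 libraries. The sum over all 43 is not given here. Of the 10 that were tested, 6 were called higher in Nacl2 than in CK18, for the proteins S14, L2, S8, S12, L20 and L5. Of all tested unigenes 23.0% were called there, 14.5% higher. All were at low levels, and the highest mean of a unigene in the class was 1.46 FPKM. For S12, a protein of the decoding centre, Cluster-31803.4295 was at 0.015 and 0.038 in CK0, 0.82 and 0.259 in CK18, 0.18 and 0.368 in Nacl1, 8.28 and 6.09 in Nacl2, 0.43 and 0.334 in PEG1, and 0.341 and 0.186 in PEG2. Both Nacl2 libraries stood above the rest, with a log2 fold change of 3.65 (SE 0.64, adjusted p = 0.00401). Unigenes outside the members were picked by the NR description alone, with none set apart. The 112 annotated to the plastid genome summed to 468 and 396 in Nacl2, 363 and 260.5 in CK18 and between 59.2 and 374 in all 10 libraries outside Nacl2. The 105 other unigenes annotated to the mitochondrial genome summed to 269 and 962 in Nacl2 and to 289 and 325 in CK18. Their part in the result was not tested.

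Summed over its unigenes, S12 was at 0.638 and 0.348 in CK0, 3.35 and 1.51 in CK18, 0.615 and 0.867 in Nacl1, 6.92 and 4.58 in Nacl2, 1.67 and 1.56 in PEG1, and 2.96 and 6.57 in PEG2. Nacl2 and PEG2 overlapped, and Nacl2 was above Nacl1 by 2.78 on the log2 scale (SE 0.52, adjusted p = 0.00199). L16, near the site where new aminoacyl-tRNA binds, was at 0.06 and 0 in CK0, 1.62 and 3.03 in CK18, 0.167 and 0.038 in Nacl1, 0.706 and 0.864 in Nacl2, 0.267 and 0.777 in PEG1, and 1.80 and 2.10 in PEG2. CK18 lay above Nacl1 without overlap, with a log2 fold change of −3.60 for Nacl1 (SE 0.62, adjusted p = 0.00294). S11, on the platform of the small subunit, was at 0.195 and 0.127 in CK0, 2.46 and 2.33 in CK18, 0.202 and 0.452 in Nacl1, 0.192 and 0.238 in Nacl2, 0.227 and 0.103 in PEG1, and 0.256 and 0.914 in PEG2. CK18 was above every other library.

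S4 and S7, which start the assembly of the small subunit in bacteria, were at low levels in every library. S4 was at 0.047 and 0 in CK0, 1.02 and 4.31 in CK18, 0.554 and 0.094 in Nacl1, 1.06 and 1.15 in Nacl2, 0.198 and 0.918 in PEG1, and 1.98 and 3.15 in PEG2. S7 was listed at 0 in CK0, Nacl1 and Nacl2, at 0 and 0.215 in PEG1, at 0.445 and 4.23 in CK18, and at 8.01 and 4.15 in PEG2. The leading unigenes of S4, S7, L16, S11 and L5 were bacteria-like, and the bacteria-like class summed to between 12.0 and 88.3 deposited FPKM, highest in PEG2_2, the library with the lpxC reads. The part of bacterial RNA in these values was not tested. The call of S4 in Nacl1 (−2.64, SE 0.84, adjusted p = 0.0376) was lost without CK18_2, Nacl1_2 or either Nacl2 library.

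Few abundant members were called in the PEG-6000 groups. In PEG1, 1 member was called higher than in CK18 (L36) and 6 lower (L2, L7/L12, L16, S7, S9 and S11), where 25.8% of all KOs were called (13.0% higher and 12.8% lower), and the median was −0.05 against 0.04. Leaving out CK18_2 left 3 calls and leaving out PEG1_1 left 4. Without scaling, 2 members were called higher and 3 lower, and the median was 0.53, in the other direction. In PEG2, limma called 0 members higher or lower against CK18, where 6.19% of all KOs were called (2.84% higher and 3.35% lower). Of the members 4 had an unadjusted p under 0.05, against 25.7% of all KOs, and leaving out CK18_2 gave 2 calls. The member with the smallest adjusted p was L19, at the contact of the subunits, with a log2 fold change of 0.85 (SE 0.22, adjusted p = 0.0400). L19 was at 18.2 and 17.4 in CK0, 15.6 and 22.2 in CK18, 28.9 and 25.3 in Nacl1, 28.3 and 23.8 in Nacl2, 17.5 and 16.6 in PEG1, and 31.8 and 35.3 in PEG2. PEG2 was above all other libraries.

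PEG1 and PEG2 differed in 6 members, all higher in PEG2 (L2, L5, L7/L12, L16, S7 and S9), where 15.5% of all KOs were called (8.90% higher and 6.59% lower), with 3 calls left without PEG2_2. L7/L12, the flexible stalk protein that recruits elongation factors, was at 55.7 and 70.4 in CK0, 188 and 220.5 in CK18, 182 and 172 in Nacl1, 118 and 109 in Nacl2, 64.2 and 56.05 in PEG1, and 248 and 235 in PEG2. PEG1 was below the other day 18 groups and PEG2 above them, with a log2 fold change of −1.76 for PEG1 against CK18 (SE 0.17, adjusted p = 0.000123) and 2.01 for PEG2 against PEG1 (SE 0.17, adjusted p = 0.000223). Both calls were made under all 4 scalings. L10, on which L7/L12 is anchored, had log2 fold changes of 0.09 and −0.10 in the same comparisons. S9, whose end reaches the tRNA in the small subunit, was at 71.0 and 73.9 in CK0, 137 and 110.9 in CK18, 109 and 84.1 in Nacl1, 54.1 and 52.4 in Nacl2, 55.7 and 56.1 in PEG1, and 111 and 119 in PEG2. Both PEG1 libraries were below both PEG2 and both CK18 libraries. The S9 calls depended on the scaling. It was called lower in PEG1 than in CK18 under 2 of the 4 scalings (log2 fold changes from −1.14 to −0.56). In PEG2 against PEG1 it was called higher under 1 of the 4 (0.52 to 1.04). L5, which binds the 5S RNA, was at 0.242 and 0.008 in CK0, 0.416 and 0.854 in CK18, 0.668 and 0.698 in Nacl1, 1.34 and 1.04 in Nacl2, 0.099 and 0.871 in PEG1, and 1.99 and 5.19 in PEG2. PEG2 was above all other libraries, and its call against PEG1 (2.92, SE 0.83, adjusted p = 0.0268) was lost without PEG1_1 or PEG2_2. Among unigenes, 18 were called higher and 8 lower in PEG1 (13.3% of all), 1 and 0 in PEG2 (1.36%) and 11 and 7 in PEG2 against PEG1 (7.87%). These counts rested on single libraries: without PEG1_1 or PEG1_2 the 26 calls in PEG1 became 1 and 2.

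The other proteins of bacterial-type translation were read from a list of initiation, elongation, release and assembly factors, of which 18 of 19 KOs were tested. In CK18 against CK0, 12 were called higher and 2 lower (77.8% of those tested against 50.0% of all KOs, median 1.51), and in Nacl2 against CK18, 2 higher and 6 lower (44.4% against 47.1%, median −0.54). Against CK0 all 4 elongation factors were called higher: tsf (EF-Ts, which recharges EF-Tu) by 4.30, fusA (EF-G, which drives translocation) by 3.60, lepA by 1.81 and tuf (EF-Tu) by 1.44. In Nacl2 the log2 fold change was −2.61 for tsf, −2.08 for prfB (a release factor), −2.30 for PDF (peptide deformylase, which trims new bacterial-type proteins) and −2.50 and −2.22 for the assembly proteins rbfA and engB. Against these ran rsgA, a GTPase of small-subunit assembly, with −2.56 in CK18 against CK0 and 2.51 in Nacl2 against CK18, and era, another such GTPase, with −1.15 and 1.40. Both calls of era were lost with quantile normalization. In Nacl2 tsf, prfB, PDF, rbfA, engB and rsgA kept their call and direction under all 4 scalings, while the list's median in Nacl2 was 0.47 with FPKM as deposited and 0.18 with unigene factors, with 6 and 3 called higher and 5 and 5 lower. In CK18 against CK0, 6 were called higher and 3 lower with FPKM as deposited, for which the share of all KOs called is not given here.

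Of the proteins found only in mitochondrial ribosomes, 8 of 9 KOs were tested. In CK18 against CK0, 0 were called higher and 3 lower (MRPS23, MRPL45 and MRPL41), and in Nacl2 against CK18, 3 were called higher (the same 3) and 1 lower (MRPL43). These were 37.5% and 50.0% of those tested, where 50.0% and 47.1% of all KOs were called. MRPS23 had log2 fold changes of −1.37 (SE 0.22) and 1.58 (SE 0.22) in these comparisons and MRPL45 of −1.34 (SE 0.22) and 1.42 (SE 0.22). On deposited FPKM, 0 were called higher and 6 lower in CK18 against CK0, and 5 higher and 0 lower in Nacl2 against CK18. On that scaling the median over all KOs was itself lower in CK18 than in CK0 and higher in Nacl2 than in CK18. The share of all KOs called on that scaling is not given here. Both comparisons share the CK18 libraries. The 75 cytosolic ribosomal proteins had 49 called higher and 0 lower in CK18 against CK0 (median 1.11) and 0 higher and 72 lower in Nacl2 against CK18 (median −1.43). On deposited FPKM these became 2 higher and 3 lower, and 0 and 0, so that the cytosolic calls depended on the scaling more than those of the organelle-type proteins in CK18 against CK0.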

How the data were processed

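The authors assembled the reads de novo with Trinity v2.4.0, clustered transcripts with Corset, aligned clean reads with Bowtie 2, counted them with RSEM v1.2.15 and deposited FPKM per unigene and library, with an annotation table of unigene lengths in bp and database matches. FPKM are not read counts, so count tests were not used and the depth of a library is unknown. Here FPKM were summed by KO, divided by the median ratio of a library to the geometric mean over the 12 libraries, and tested with limma 3.58.1 (trend, two-sided) in R 4.3.3 on log2(value + 0.1), with 6 groups and 6 residual degrees of freedom. The pseudocount understates changes of low members. KOs needed 1 FPKM and unigenes 0.3 FPKM in at least 2 libraries. The rule named the 5 members of highest mean level, the called members with the largest changes without overlap, and the unigenes leading them or changing most. Replicate numbers did not pair the libraries. The fits were tested on simulated data with a smaller and a larger change in Nacl2. For KO sums 79% of the smaller and 97% of the larger changes were called, and 1.68% of the calls were false. For unigenes these values were 8.2%, 37.5% and 5.38%, so that low counts of called unigenes do not show an absence of change. The members, gene lists and tests were chosen with earlier results of these data known. Alternative settings were other pseudocounts, filters, scalings, sample sets, a sequencing-quality covariate and each library left out.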

Additional observations from a re-analysis of the deposited data

How the results depend on the processing

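Counts of called member KOs are given in the order Nacl1, Nacl2, PEG1 and PEG2 against CK18, CK18 against CK0, Nacl2 against Nacl1 and PEG2 against PEG1, where they were 4, 31, 7, 0, 34, 28 and 6. With FPKM as deposited, 8 were called in Nacl1, 15 in Nacl2, 18 in Nacl2 against Nacl1 and 2 in PEG2 against PEG1. Quantile normalization gave 18 in Nacl2 and 2 in PEG2, and factors from the unigenes gave 20 in Nacl2 and 16 in Nacl2 against Nacl1. With members of a mean of at least 5 FPKM only, the counts were 0 in Nacl1, 2 in PEG1 and 2 in PEG2 against PEG1. With the sequencing-quality class of a library as a covariate they were 1, 4 and 3, with an adjusted p under 0.01 they were 1, 4 and 3, and with only the highest unigene of each KO they were 0, 3 and 2. Without unigenes whose SwissProt score was above their NR score they were 0, 3 and 3. Only the 2 groups compared gave 3 in PEG2 against PEG1. With no limit on the fold change the counts were 13 in Nacl1 and 1 in PEG2. A pseudocount of 1 gave 2 in PEG2, and leaving out unigenes under 300 bp gave 1. Leaving out 1 library in turn gave 2 to 5 in Nacl1, 28 to 32 in Nacl2, 3 to 7 in PEG1, 0 to 2 in PEG2, 32 to 37 in CK18 against CK0, 25 to 29 in Nacl2 against Nacl1 and 3 to 6 in PEG2 against PEG1.

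Counts of called unigenes in the same order were 1, 84, 26, 1, 82, 47 and 18. A pseudocount of 1 gave 52 in Nacl2, 17 in PEG1, 5 in PEG2 and 11 in PEG2 against PEG1, and a pseudocount of 0.01 gave 2 in Nacl1 and 3 in PEG2. No filter gave 3 in Nacl1 and 3 in PEG2. A mean of at least 1 FPKM gave 2 in Nacl1, 49 in Nacl2, 11 in PEG1, 30 in Nacl2 against Nacl1 and 4 in PEG2 against PEG1. FPKM as deposited gave 7 in Nacl1, and quantile normalization gave 5 in Nacl1 and 2 in PEG2. Fits by experiment gave 3 in Nacl1, 16 in PEG1, 0 in PEG2 and 8 in PEG2 against PEG1. Only the 2 groups compared gave 0 in Nacl1, PEG2 and PEG2 against PEG1. The quality covariate gave 0 in Nacl1 and 15 in PEG1. An adjusted p under 0.01 gave 0 in Nacl1, 51 in Nacl2, 6 in PEG1, 0 in PEG2, 23 in Nacl2 against Nacl1 and 8 in PEG2 against PEG1. Leaving out 1 library gave 0 to 5 in Nacl1, 35 to 84 in Nacl2, 1 to 26 in PEG1, 1 to 4 in PEG2, 62 to 83 in CK18 against CK0, 11 to 50 in Nacl2 against Nacl1 and 1 to 20 in PEG2 against PEG1.

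The median log2 fold change of the members in CK18 against CK0 was 3.81. It was 3.63 with a pseudocount of 1, 3.66 with no filter, 3.96 with a mean of at least 5 FPKM, 2.88 with FPKM as deposited, 3.18 with quantile normalization, 3.57 with unigene factors, 4.01 with the highest unigene, 3.68 without unigenes under 300 bp and 3.67 without oomycete hits. In Nacl1 (−0.28) it was 0.38 with FPKM as deposited, −0.028 with quantile normalization and −0.13 with unigene factors. In Nacl2 (−1.35) it was −0.34, −0.81 and −0.63 in the same order. In Nacl2 against Nacl1 (−1.04) it was −0.69, −0.79 and −0.46, and −1.18 with a mean of at least 5 FPKM, −0.84 without unigenes under 300 bp and −1.22 without unigenes whose SwissProt score was above their NR score. In PEG1 (−0.05) it was 0.53 with FPKM as deposited, 0.23 with quantile normalization and 0.093 with the highest unigene. In PEG2 against PEG1 (0.13) it was −0.39, −0.076 and −0.055 in the same order. Leaving out 1 library gave −0.41 to −0.22 in Nacl1, −1.37 to −1.32 in Nacl2, −0.14 to 0.06 in PEG1, 0.09 to 0.19 in PEG2, 3.67 to 3.87 in CK18 against CK0, −1.09 to −0.99 in Nacl2 against Nacl1 and 0.08 to 0.18 in PEG2 against PEG1.

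Of the plastid-type proteins in Nacl2 (22 called), 9 were called with FPKM as deposited and 13 with quantile normalization or unigene factors. Of the mitochondrion-type proteins in Nacl2 (5 called), 11 and 9 were called with FPKM as deposited and unigene factors. Leaving out 1 library gave 21 to 22 and 5 to 6 in Nacl2, and 21 and 4 to 6 in CK18 against CK0. L4 (rplD) changed direction without unigenes under 300 bp, to 0.39 in Nacl2 against CK18 and 0.067 in Nacl2 against Nacl1. Apart from scaling and short unigenes, the cause of these differences was not tested. Replicate numbers did not pair the libraries: over the 15 pairs of groups, the correlation of replicate differences in KO sums ran from −0.169 to 0.477, with 4 over 0.1. The replicate block gave 4, 31, 7, 0, 34, 28 and 5 called members and 1, 82, 24, 1, 79, 47 and 15 called unigenes. No member had a best NR hit to a bacterial protein, so leaving these out could not be tried. The number of reads per library is not in the files used here, so no counting error is given.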

Other observations

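A few member unigenes changed apart from the rest of their protein. Cluster-31803.25617, annotated as mitochondrial S6, a protein of the small-subunit platform, was at 25.5 and 25.4 in PEG1 and 17.9 and 31.2 in PEG2, and between 0 and 9.26 in the other 8 libraries. The PEG groups did not overlap with any other group, and the log2 fold change for PEG1 against CK18 was 5.48 (SE 1.27, limma adjusted p = 0.0224), with 1 of the 2 CK18 libraries at 0. Cluster-31803.84712, a plastid-type L15 unigene, was at 16.5 and 22.9 in PEG1 and 6.61 and 5.03 in CK18, a log2 fold change of 1.74 (SE 0.48, adjusted p = 0.0466). Cluster-31803.69447, a plastid-type S16 unigene, was at 25.8 and 20.4 in PEG1 and 7.23 and 11.5 in CK18, a log2 fold change of 1.32 (SE 0.34, adjusted p = 0.0346). These unigenes were minor forms of proteins whose summed level was not called in PEG1.

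Under 0.8 M NaCl, Cluster-31803.41171, annotated as mitochondrial L21 and 5632 bp long, was at 45.6 and 43.6, above 19.4 and 12.7 in CK18. This was a log2 fold change of 1.50 (SE 0.29, adjusted p = 0.00705). In PEG1 the unigene was at 7.59 and 6.25, a log2 fold change of −1.18 against CK18 (SE 0.29, adjusted p = 0.0311). The L18 unigene Cluster-31803.20928 was at 10.6 and 9.16 in Nacl1 and 0.981 and 0.815 in Nacl2, a log2 fold change of −3.32 (SE 0.43, adjusted p = 0.00219). The mitochondrion-type L4 unigene Cluster-31803.91600 was at 20.6 and 14.4 in PEG2 and 6.83 and 5.53 in PEG1, a log2 fold change of 1.47 (SE 0.29, adjusted p = 0.0131).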
